A study of Triticum aestivum with 24 samples.

Results

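GA-treated leaf sheaths of the *idd5* mutant of hexaploid wheat were compared with GA-treated leaf sheaths of its wild type, the cultivar Cadenza. Each genotype had 4 replicate RNA-seq libraries, labelled Cadenza GA and *idd5* GA, out of 24 libraries in 6 groups. The seedlings were 7 d old and were collected 8 h after treatment with 100 µM gibberellin A3 (GA3), and only the sheath from the grain up to the coleoptile tip was used. The genes described are the 57979 gene models, of 107891 in the table, that reached 0.5 TPM in at least 4 of these 8 libraries. TPM is the abundance of a transcript, corrected for its length and scaled to the same total in every library. The *idd5* line carries induced mutations in all 3 copies of *IDD5*, namely premature stop codons in the A and D copies and a changed splice donor site in the B copy. The mutations were combined by crossing and backcrossed to Cadenza. The comparison was with Cadenza itself and not with the wild-type sister line from the same crosses, so any other difference between the line and Cadenza cannot be told apart from the *IDD5* mutations. Of the 57979 genes, 67 lie in an interval of chromosome 2A, from TraesCS2A02G267900 to TraesCS2A02G277100, and are described apart from the other 57912.

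Further libraries were used for reference. Water-treated Cadenza and *idd5*, 4 libraries each, share no library with the GA-treated seedlings, and neither does the comparison of water-treated *Rht-D1b* with water-treated Cadenza. *Rht-D1b* is a near-isogenic semi-dwarf line in the Cadenza background. Its allele of the D copy of *RHT1* encodes a DELLA protein that resists GA-triggered breakdown.

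Gibberellins are hormones that promote growth of stems and leaves. They act by way of the GID1 receptor, which on binding GA marks the DELLA proteins for destruction. DELLA proteins restrain growth and have no DNA-binding domain of their own, so they act through partners that bind DNA. The INDETERMINATE DOMAIN (IDD) proteins are zinc finger transcription factors and are among these partners. In wheat, DELLA proteins are encoded by the *RHT1* genes. Bread wheat has A, B and D subgenomes, so that most genes are present as homoeologues on 3 related chromosomes. The comparison asks how far the *idd5* transcriptome stands from the wild type when GA is supplied to both.

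The libraries of a genotype mostly resembled each other more than those of the other genotype. The range of the *idd5* pairs overlapped slightly with that of the pairs between genotypes. Across the 57979 genes, the correlation of log2 levels lay between 0.972 and 0.977 for the 6 pairs of Cadenza libraries, between 0.96 and 0.972 for the 6 pairs of *idd5* libraries, and between 0.945 and 0.962 for the 16 pairs between genotypes. From 56583 to 58319 gene models per library reached 0.5 TPM. The 1000 most abundant genes held 35.1% to 37.1% of all TPM in Cadenza and 37.4% to 39.2% in *idd5*, so the groups did not overlap in this measure. Replicate 2 of *idd5* stood apart from the other 3 within the chromosome 2A interval, as described there. Outside the interval, genes listed at 0 in a single *idd5* library were counted. Of the 28566 genes averaging 5 TPM or more in Cadenza, 10 were listed at 0 in replicate 2 alone. The counts were 13, 17 and 8 in replicates 1, 3 and 4 alone. Such a count cannot show smaller differences. Replicate 2 had the fewest genes at 0.5 TPM (56583). Its median correlation with the other *idd5* libraries was 0.969, where replicates 1, 3 and 4 had 0.97, 0.963 and 0.969. Read depth cannot be recovered from TPM and is unknown.

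The *IDD5* genes were examined first. *IDD5-B1* (TraesCS2B02G218900, chromosome 2B), the copy with the splice site mutation, had 8.97, 9.13, 9.36 and 9.52 TPM in Cadenza replicates 1 to 4. In *idd5* it had 35.5, 35.1, 30.5 and 35.6 TPM. All mutant libraries were above all wild-type libraries, with means of 9.25 ± 0.243 TPM in Cadenza and 34.2 ± 2.48 TPM in *idd5* (SD, n = 4 each). *IDD5-A1* (TraesCS2A02G188400, chromosome 2A) had 10.1, 7.68, 8.8 and 8.63 TPM in Cadenza and 9.52, 9.57, 8.82 and 8.77 TPM in *idd5*. *IDD5-D1* (TraesCS2D02G199300, chromosome 2D) had 11, 10.6, 11.3 and 10.5 TPM in Cadenza and 11.9, 12.8, 12.7 and 10.6 TPM in *idd5*. For these copies, which carry the premature stop codons, the groups overlapped. The log2 fold change of *IDD5-B1* was 1.83 (SE 0.0718, limma adjusted p = 3.9e-13). SE is the standard error and the adjusted p comes from limma. The change was 0.06 for *IDD5-A1* (SE 0.081, limma adjusted p = 0.688) and 0.14 for *IDD5-D1* (SE 0.0789, limma adjusted p = 0.273). Here and below, fold changes are *idd5* relative to Cadenza on the scale of log2(TPM + 0.5), which understates the change of weakly expressed genes.

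The 3 *IDD5* transcripts together came to 28.9 ± 1.16 TPM in Cadenza and 55.3 ± 2.5 TPM in *idd5* (SD, n = 4 each), with 27.4 to 30 TPM and 52 to 57.5 TPM in the single libraries. The copies made nearly equal contributions in Cadenza, where *IDD5-A1* held 30.4%, *IDD5-B1* 32.1% and *IDD5-D1* 37.5% of the sum. In *idd5*, *IDD5-B1* held 61.7% ± 2.58 of it (SD, n = 4). The transcripts of a gene are counted together in TPM, so correctly spliced *IDD5-B1* transcripts cannot be told apart here from those that keep the intron. The water-treated libraries gave the same picture, with an *IDD5-B1* change of 1.88 (SE 0.0718, limma adjusted p = 3.59e-13).

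Of the 50 genes nearest to each *IDD5* copy, 7 were called around *IDD5-A1*, 2 around *IDD5-B1* and 4 around *IDD5-D1*, where 10.2% of all 57979 genes were called, by the rule given below for the whole transcriptome.

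**Figure D1:**
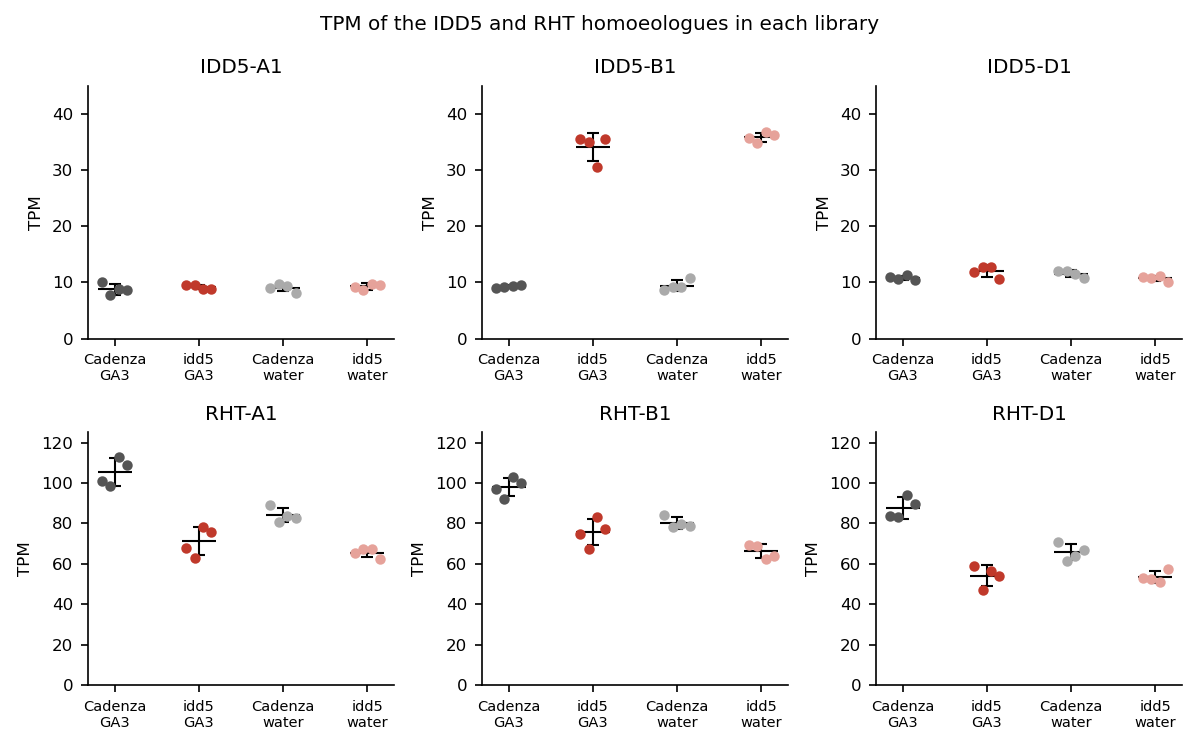
TPM (vertical axis) of the 3 IDD5 and 3 RHT homoeologues in GA-treated and water-treated Cadenza and idd5. Each point is a library, and the bars give the mean and SD of 4 libraries. IDD5-B1 stands at 30.5 to 35.6 TPM in GA-treated idd5 and at 8.97 to 9.52 TPM in GA-treated Cadenza, and each RHT copy is lower in GA-treated idd5 than in any GA-treated Cadenza library.

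The *RHT1* genes, which encode the wheat DELLA proteins, were all lower in GA-treated *idd5*. *RHT-D1* (TraesCS4D02G040400, chromosome 4D) had 83.5, 83, 94.2 and 89.5 TPM in Cadenza and 59.1, 46.8, 56.2 and 54.1 TPM in *idd5*. *RHT-A1* (TraesCS4A02G271000, chromosome 4A) had 101, 98.5, 113 and 109 TPM in Cadenza and 67.7, 63.1, 78.1 and 75.9 TPM in *idd5*. *RHT-B1* (TraesCS4B02G043100, chromosome 4B) had 97, 92.1, 103 and 99.8 TPM in Cadenza and 74.9, 67.5, 83.2 and 77.2 TPM in *idd5*. In none of the 3 genes did the groups overlap, and replicate 2 was the lowest *idd5* library in each. The log2 fold change was -0.69 for *RHT-D1* (SE 0.0721, limma adjusted p = 5.85e-07), -0.57 for *RHT-A1* (SE 0.0746, limma adjusted p = 1.14e-05) and -0.37 for *RHT-B1* (SE 0.0757, limma adjusted p = 0.00129). The fall of *RHT-B1* was the least firm of these. It kept its direction but no longer passed the threshold with median-ratio scaling of the libraries (-0.31, limma adjusted p = 0.0114) or when only the 8 GA-treated libraries were fitted (-0.37, adjusted p = 0.0122).

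The 3 *RHT1* transcripts together came to 291 ± 16.3 TPM in Cadenza and 201 ± 17 TPM in *idd5*, which is 69.1% of the wild type (SD, n = 4 each). The single libraries had 274 to 310 TPM and 177 to 217 TPM. The copies did not fall in proportion. *RHT-D1* went from 30.1% ± 0.344 of the sum in Cadenza to 26.9% ± 1.61 in *idd5*, and *RHT-B1* from 33.7% ± 0.546 to 37.7% ± 0.565 (SD, n = 4 each; p = 0.0286 for each in an exact two-sided permutation test, the smallest that 4 libraries against 4 allow). The share of *RHT-A1* was 36.2% ± 0.307 and 35.4% ± 1.32 (SD, n = 4 each; p = 0.314 in the exact two-sided permutation test). The 3 tests of shares are not independent, since the shares add up to the whole. In water-treated seedlings, the share of *RHT-D1* was 28.6% in Cadenza and 28.9% in *idd5* (exact two-sided permutation test, p = 0.8). That of *RHT-B1* was 34.9% in Cadenza and 35.7% in *idd5* (exact two-sided permutation test, p = 0.286). That of *RHT-A1* was 36.6% and 35.4% (exact two-sided permutation test, p = 0.2). The sum in water was 230 ± 9.95 TPM in Cadenza and 185 ± 3.88 TPM in *idd5* (SD, n = 4 each). The log2 fold changes in water were -0.36, -0.28 and -0.29 for *RHT-A1*, *RHT-B1* and *RHT-D1* (limma adjusted p = 0.00303, 0.0223 and 0.0112). Only *RHT-A1* passed the threshold of 0.01 there. Between GA and water, the genotype difference of *RHT-D1* changed by -0.40 on the log2 scale (SE 0.102), which did not pass over all genes tested (limma adjusted p = 0.372). Of the 50 genes nearest to each *RHT1* copy, 5 were called around *RHT-A1*, 7 around *RHT-B1* and 11 around *RHT-D1*. Over all 57979 genes, 10.2% were called. In a bulk sample of the sheath, fewer cells of a type and less RNA per cell cannot be told apart.

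Over the whole transcriptome, differentially expressed genes (DEGs) were taken as those whose limma p-value, adjusted by Benjamini-Hochberg over the 63241 genes tested, was under 0.01. Of the 57979 genes, 5901 (10.2%) were DEGs. Outside the chromosome 2A interval there were 5839 (10.1%), of which 2867 (4.95%) were higher in *idd5* and 2972 (5.13%) were lower. With the interval included, 4.94% of the 57979 genes were higher and 5.23% lower. Of the 5901 DEGs, 5613 (95.1%) had no overlap between the 4 *idd5* and the 4 Cadenza libraries. Over all 57979 genes, 11366 (19.6%) had none. The overlap was counted on the libraries that made the calls, so it is no further test of them. The number of DEGs rests on a spread estimated over all 24 libraries. With only the 8 GA-treated libraries in the fit there were 2802 DEGs outside the interval, 1477 higher and 1325 lower, and 2701 of them were among the 5839.

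The balance of higher and lower DEGs depends on how the libraries are scaled. The median log2 fold change over the 57912 genes outside the interval was -0.0686, and 60.5% of them had a lower mean in *idd5*. As deposited, 49.1% of the DEGs outside the interval were higher in *idd5*. With median-ratio scaling, which brought the median to -0.0128, there were 3472 higher and 2025 lower DEGs, and 63.2% were higher. Single libraries also mattered. Without Cadenza replicate 3, which had the largest number of genes at 0.5 TPM, the lower DEGs numbered 1821 and the higher ones 2207.

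Most changes were moderate in size. The median log2 fold change was 0.59 for the higher DEGs (quartiles 0.474 and 0.787) and -0.538 for the lower DEGs (quartiles -0.792 and -0.397), outside the interval. A change of more than 2-fold was reached by 375 higher and 442 lower DEGs, or 13.1% and 14.9% of them. More than 4-fold changes were seen in 69 higher and 60 lower DEGs, and more than 8-fold changes in 19 and 18. By abundance, the higher DEGs held 12.3% ± 1.03 of all TPM in Cadenza and 19.3% ± 0.95 in *idd5* (SD, n = 4 each). The lower DEGs held 16% ± 0.514 in Cadenza and 11% ± 0.197 in *idd5*. These shares describe the genes that were called and are no further test of them.

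Strongly expressed genes were called far more often than weak ones. Of the genes with a mean of under 1 TPM over the 8 libraries, 2.15% were DEGs. The percentage was 4.02% from 1 to 5 TPM, 10.8% from 5 to 20 TPM, 28.4% from 20 to 100 TPM and 40.4% over 100 TPM. The median standard error of the log2 fold change went the other way, from 0.228 in the weakest class to 0.083 in the strongest. So did the size of the changes called, since the higher DEGs had a median of 1.15 in the weakest class and of 0.581 in the strongest. Among genes over 100 TPM, 348 of 1697 were higher and 337 lower in *idd5*. A weak gene that was not called could therefore have changed by as much as a strong gene that was.

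**Figure D2:**
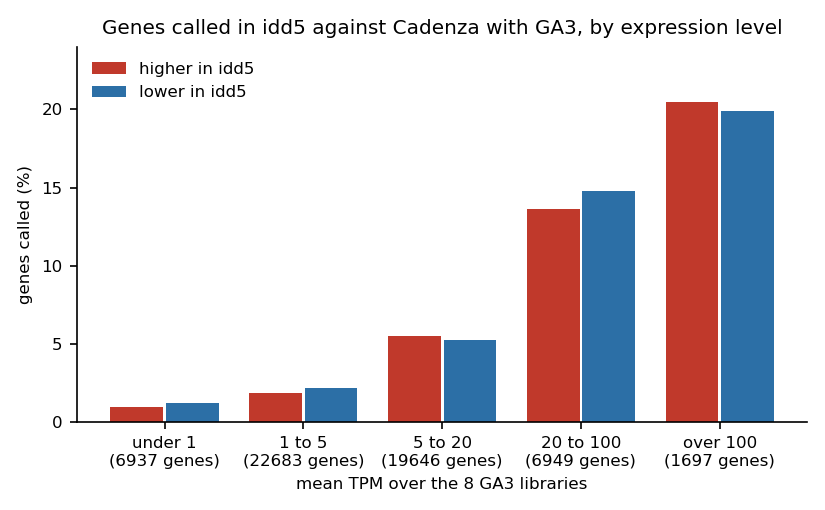
Percentage of genes called higher or lower in GA-treated idd5 than in GA-treated Cadenza (vertical axis), by mean TPM over the 8 libraries (horizontal axis), outside the chromosome 2A interval. The percentage called in either direction goes from 2.15% of the 6937 genes under 1 TPM to 40.4% of the 1697 genes over 100 TPM.

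DEGs were spread over all chromosomes. Outside the interval the percentage called lay between 8.65% on chromosome 7B and 11% on chromosome 4B. The A, B and D subgenomes had 10%, 9.99% and 10.2%. Between them there was no more than a small difference in direction, with 4.94%, 5.03% and 4.9% of genes higher and 5.09%, 4.95% and 5.29% lower in *idd5*. Large changes were less even. On chromosome 5B, 22.7% of the DEGs changed by more than 2-fold and on 5A 18.2%, while the other chromosomes had 9.33% to 15.3%. Gene models not placed on a chromosome had 29.8%, among 84 DEGs.

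Some DEGs lay next to each other. Counted over 50 consecutive genes in the order of their identifiers, the largest number of DEGs was 46 on chromosome 2A, inside the interval, and all 46 were lower in *idd5*. The next largest was 20 of 50 on chromosome 5B, at genes 2667 to 2716 of 3084, with 6 higher and 14 lower. In that stretch 14 genes were DEGs in water, and 13 were called in both treatments with the same direction. Over all genes outside the interval, 10.1% were DEGs with GA and 4.99% in water. The stretch was picked for its number of DEGs with GA. It held 7 of the 74 DEGs of chromosome 5B that changed by more than 2-fold. On the other chromosomes the largest number was 10 to 16. Away from the interval, the gene following a lower DEG was itself a lower DEG in 9.12% of cases, where 5.13% of all genes were, and the gene following a higher DEG was a higher DEG in 6.21%, where 4.95% were.

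The largest changes outside the interval were many times larger than the typical one. They are given for the 2 genes highest and the 2 lowest in log2 fold change among DEGs with at least 0.5 TPM in all 8 libraries, a mean of at least 5 TPM in one genotype and no overlap, which 4756 DEGs met. These identifiers are not paired with gene names in the sources used here, so no role is given.

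TraesCS1B02G468400 on chromosome 1B had 2.15, 0.86, 0.59 and 0.64 TPM in Cadenza and 68.1, 121, 96.7 and 45.6 TPM in *idd5*, a log2 fold change of 5.75 (SE 0.372, limma adjusted p = 8.81e-10). In water it had at most 2.03 TPM in Cadenza and 99.1 to 137 TPM in *idd5*. It was also near 0 in *Rht-D1b*, with at most 0.31 TPM in its 8 libraries, so that a high level was seen in *idd5* libraries alone among the 24. TraesCS5B02G421100 on chromosome 5B had 2.83, 0.89, 1.2 and 1.06 TPM in Cadenza and 40.1, 22, 35 and 29.1 TPM in *idd5*, a log2 fold change of 4.06 (SE 0.283, limma adjusted p = 2.42e-09). In *Rht-D1b* it had 1.29 to 3.73 TPM over both treatments.

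TraesCS7D02G095900 on chromosome 7D had 70.3, 91.7, 94.1 and 54.7 TPM in Cadenza and 3.97, 2.01, 4.2 and 2.78 TPM in *idd5*, a log2 fold change of -4.40 (SE 0.271, limma adjusted p = 4.09e-10). TraesCS2B02G100800 on chromosome 2B had 167, 230, 214 and 84.1 TPM in Cadenza and 7.6, 7.65, 10.9 and 5.66 TPM in *idd5*, a log2 fold change of -4.30 (SE 0.299, limma adjusted p = 2.42e-09). Unlike the rises, these falls had a counterpart in *Rht-D1b*. Its 8 libraries had 0.94 to 2.93 TPM of the gene on 7D and 2.04 to 5.23 TPM of the gene on 2B. Water-treated *idd5* had 4.41 to 8.2 TPM and 7.81 to 21.7 TPM of them, against 75.2 TPM or more and 178 TPM or more in water-treated Cadenza. The low level was therefore shared by the *idd5* and *Rht-D1b* lines in both treatments, and Cadenza alone was high.

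**Figure D3:**
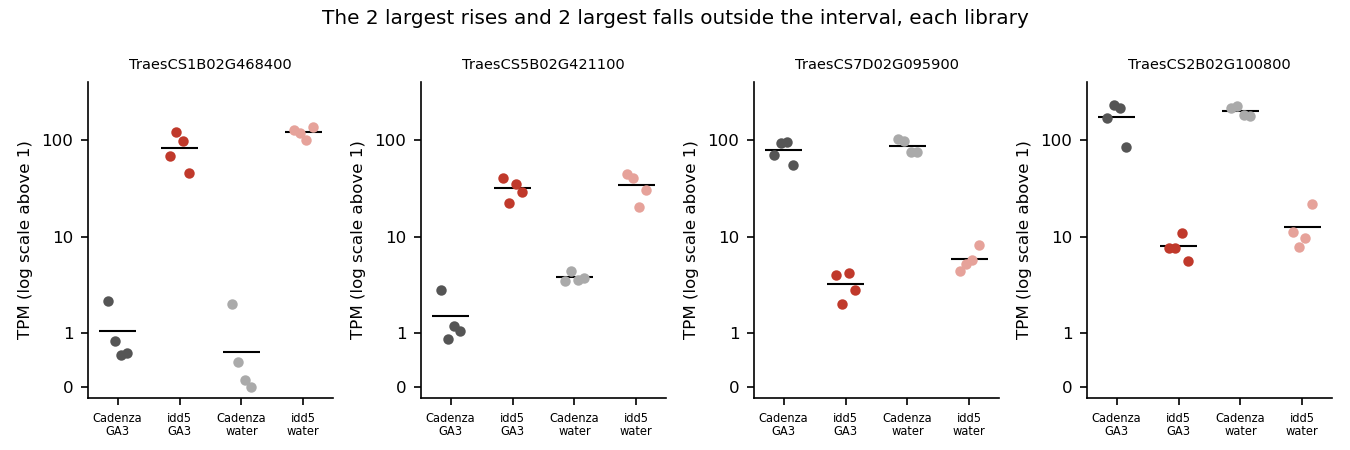
TPM (vertical axis, logarithmic above 1) of the 2 genes with the largest rises and the 2 with the largest falls in GA-treated idd5, outside the interval. Points are libraries and the line is the mean of 4. Separate GA-treated libraries were a condition for choosing these genes. In water, where no such condition was set, the wild-type and mutant libraries are separate in all 4 genes too.

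A few genes were listed at 0 in every library of one genotype. Of the 57979 genes, 6 had 0 TPM in all 4 Cadenza libraries and at least 1 TPM in all 4 *idd5* libraries, where they reached from 1.27 to 23.3 TPM. The reverse was found for 2 genes, on chromosomes 2B and 4A, with 1.51 to 5.52 TPM in Cadenza. Both of these had separate groups in water too, with 2.8 TPM or more in each Cadenza library and at most 0.51 TPM in any *idd5* library. Both were also low in *Rht-D1b*, at 0.77 TPM or less. Of the 6 genes listed at 0 in Cadenza, 1 had separate groups in water, with 1.82 to 4.16 TPM in *idd5* and at most 0.06 TPM in Cadenza, and the others were listed at 0 in at least one *idd5* water library or overlapped with Cadenza. All 8 are DEGs and lie outside the interval. A value of 0 may be a failed estimate rather than absence, so no fold change is given.

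The genotype difference seen with GA was largely present in water as well. Of the 2867 higher DEGs, 2841 (99.1%) were also higher in *idd5* in water, where 38.1% of all genes outside the interval were. Of the 2972 lower DEGs, 2913 (98%) were lower in water, against 61.9% of all. The DEG threshold was passed in water, in the same direction, by 1559 (54.4%) of the higher and 845 (28.4%) of the lower DEGs, and by 0 in the opposite direction. In water, 4.99% of the 57912 genes were DEGs. The spread of each gene was estimated over all 24 libraries, so genes with a small spread are called more readily in both treatments. The median change in water was 0.446 for the higher DEGs, against 0.59 with GA, and -0.317 for the lower DEGs, against -0.538. Since the genes were chosen on the GA-treated libraries, a smaller value in water would be seen even for equal changes.

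The reverse selection is biased the other way. Outside the interval, 1753 higher (3.03%) and 1139 lower (1.97%) DEGs were found in water, and 1559 (88.9%) and 845 (74.2%) of them were DEGs with GA in the same direction. The higher DEGs of water had a median of 0.552 in water and 0.607 with GA, and 1174 (67%) changed more with GA. For the lower DEGs of water the medians were -0.523 and -0.533, and 587 (51.5%) changed more with GA.

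The difference between the treatments was tested for each gene. With GA but not in water, 3435 genes were DEGs outside the interval. A DEG in only one treatment is not thereby different between them. Of these genes, 963 (28%) had an unadjusted p-value under 0.05 for the difference. They were chosen on the same libraries that enter this test, and that choice by itself raises the share. Over all genes tested, 0 differed at an adjusted p-value of 0.01 (smallest limma adjusted p = 0.103), and 3319 of the 57912 genes outside the interval (5.73%) had an unadjusted p-value under 0.05.

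**Figure D4:**
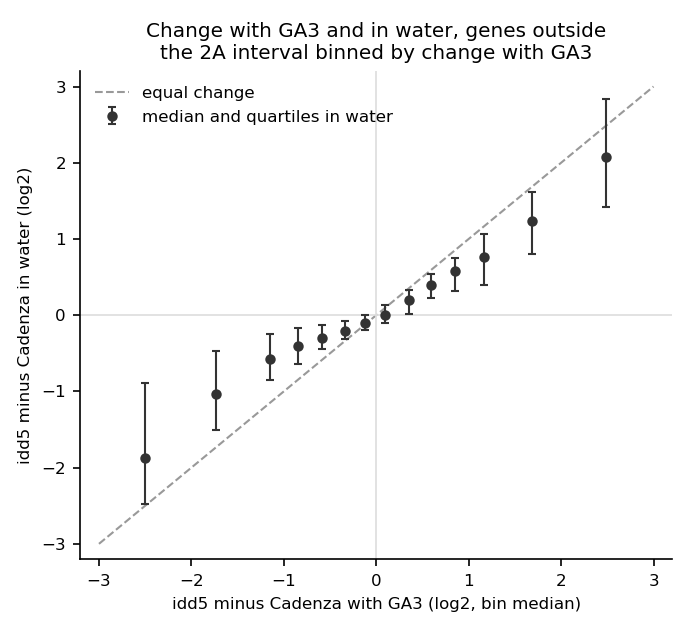
Log2 fold change of idd5 against Cadenza in water (vertical axis) for genes outside the chromosome 2A interval, grouped by their change with GA (horizontal axis). Points are the medians of the bins and the bars are the quartiles in water; the dashed line marks equal change. The medians have the same sign in water in all bins beyond 0.25 in size, and lie nearer to 0 than the change with GA on which the genes were grouped.

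The *Rht-D1b* line gave a second comparison without shared libraries. Its calls and those of *idd5* rest, however, on a spread estimated over all 24 libraries. Genes with a small spread are called more readily in both, so the percentages of all genes are not a full base rate for the overlap. In water, 1042 of the genes outside the interval were higher and 1390 lower in *Rht-D1b* than in Cadenza, together 4.2% of them. In GA-treated *idd5*, 872 (83.7%) of the former were higher DEGs, where 4.95% of all genes were, and 793 (57.1%) of the latter were lower DEGs, where 5.13% were. Their median changes were 0.616 and -0.474 in *Rht-D1b* and 0.654 and -0.371 in GA-treated *idd5*. The opposite call was made for 2 of the higher and 0 of the lower genes. All of these groups differ from Cadenza libraries, although not from the same ones, so what sets the Cadenza seedlings apart from both lines and what the mutations change cannot be told apart.

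The chromosome 2A interval holds 91 gene models, of which 8 were listed at 0 in all 24 libraries and 71 were tested. Its 67 members are those that reached 0.5 TPM in at least 4 of the 8 GA-treated libraries. Of these 62 (92.5%) were DEGs, all lower in *idd5*, against 10.2% of all genes in either direction and 5.23% lower. The limits of the interval were set on water-treated libraries of the same lines, with results of these data known. The filter let in genes that are high in Cadenza alone: 15 of the 67 did not reach 0.5 TPM in any *idd5* library, and 54 did so in fewer than 4.

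The gene at the start of the interval, TraesCS2A02G267900, had 4.7, 5.58, 7.62 and 6.81 TPM in Cadenza and 0.42, 0, 0.43 and 0.31 TPM in *idd5*. The gene at its end, TraesCS2A02G277100, had 6.99, 8.41, 8.64 and 7.6 TPM in Cadenza and 0.51, 0, 0.44 and 0.54 TPM in *idd5*. Both were listed at 0 in replicate 2 of *idd5*. The log2 fold changes were -3.10 (SE 0.191, limma adjusted p = 4.09e-10) and -3.32 (SE 0.184, limma adjusted p = 8.07e-11). Because the ends were placed where the level changed, what lies on either side of them is a description and no finding. Of the 30 genes to the left of the interval 1 was a DEG and of the 30 to the right 3 were, with median log2 fold changes of -0.143 and -0.0153, while the median over the 67 genes was -2.57. The nearest gene on the left averaged only 0.75 TPM in Cadenza. In *idd5* it had 67.3% of that and was not a DEG (limma adjusted p = 0.365). The nearest gene on the right averaged 1.94 TPM in Cadenza and had 57.3% of that in *idd5*. It was itself a lower DEG (log2 fold change -0.59, limma adjusted p = 0.000735).

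Replicate 2 differed from the other *idd5* libraries throughout the interval. In the 35 genes that averaged 5 TPM or more in Cadenza, the *idd5* level was expressed relative to that mean, and its median was 10.6%, 11.9% and 9.87% in replicates 1, 3 and 4. In replicate 2 it was 0, and 21 of the 35 genes were listed at 0. The summed TPM of the 67 genes was between 1030 and 1060 in the Cadenza libraries, and 128, 38.1, 146 and 134 in *idd5* replicates 1 to 4. Replicate 2 was below each of the other 3 in 57 of the 67 genes. Over all 4 libraries the median level was 8.09% ± 5.46 (SD, n = 4), and without replicate 2 it was 10.8% ± 1.03 (SD, n = 3). Without replicate 2, 61 of the 67 genes were DEGs.

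The genes of the interval were not all alike in replicate 2. Among the 34 DEGs at 5 TPM or more, 21 were listed at 0 there and had a median of 9.79% of Cadenza in the other 3 libraries. A further 8 were above 0 and under 5% in replicate 2, with a median of 1.78% there and 13.5% in the others. The remaining 5 had 8.32% to 12.1% in replicate 2 and 16.7% to 24.1% in the others. These sets are defined by replicate 2 itself, so their values are a description.

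Of the 67 genes, 5 did not pass the test. They had 0.52 to 7.37 TPM in Cadenza and log2 fold changes from -0.26 to 0.61, and their level in replicate 2 was 67.7% to 262% of Cadenza. They lie among genes that fell, at positions 13, 25, 26, 28 and 48 of 67.

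**Figure D5:**
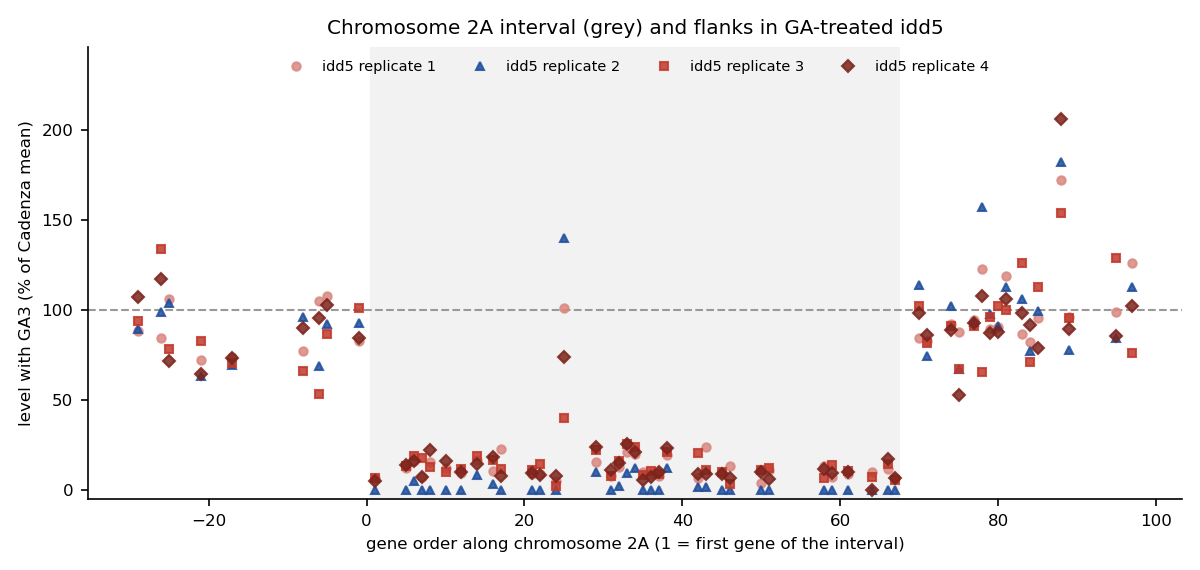
Level of each gene in the 4 GA-treated idd5 libraries as a percentage of its mean in GA-treated Cadenza (vertical axis), in gene order along chromosome 2A (horizontal axis; grey, the interval; 30 genes on either side), for genes with at least 5 TPM in Cadenza. Inside the interval 34 of 35 genes had a mean level under 25%, and replicate 2, with a median of 0, lies below each of the other 3 libraries in 33 of them.

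The water-treated libraries served to set the limits of the interval, so their low level there restates that choice. For reference, it was 18.1% ± 2.47 of water-treated Cadenza over the same 35 genes (SD, n = 4), and 60 of the 67 genes were lower DEGs in water, where 1.97% of the genes outside were. The genotype difference was larger with GA than in water in 60 of the 67, by a median of -0.558 on the log2 scale. Without replicate 2 of GA-treated *idd5*, an alternative added after the data were seen, it was larger in 59, by a median of -0.281. An unadjusted p-value under 0.05 with a larger fall with GA was found in 25 genes, and in 19 without replicate 2, where 3.19% and 2.96% of the genes outside the interval had one in that direction. Genes of the interval shifted together within a library, so these gene counts are not independent and are no separate tests of a larger fall. The difference between treatments passed the threshold in 0 of the 67, with or without replicate 2 (smallest limma adjusted p = 0.372 and 0.131). In GA-treated *Rht-D1b* the median level was 93.1% ± 3.69 of GA-treated Cadenza (SD, n = 4).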

How the data were processed

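The authors trimmed the reads with Trimmomatic (version 0.39), quantified them with Kallisto and deposited TPM for each of the 24 libraries. Their own contrasts were left aside. The release of the gene models is given differently in the methods and the series text, so identifiers stand as deposited. Only 6 of them are paired with names, and the reference gene table matched 0, so cell type markers could not be checked.

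Values of log2(TPM + 0.5), for genes reaching 0.5 TPM in 4 or more of the 24 libraries, were fitted in limma (version 3.58.1, R version 4.3.3) with a mean for each of the 6 groups and a mean-variance trend. P-values were adjusted by Benjamini-Hochberg over all 63241 genes, at 0.01. The fit was tested on simulated data. Named genes were also compared by exact two-sided permutation tests (scipy version 1.17.1). They are the 6 *IDD5* and *RHT1* homoeologues, the 2 ends of the interval and the 2 largest rises and 2 largest falls. Members and interval were chosen with earlier results of these data known. Depth is unknown, so precision rests on 4 replicates a group. Alternatives were other pseudocounts (0.1 and 1), filters, scaling, library sets, weights and thresholds, and a replicate block. Each of the 8 GA-treated Cadenza and *idd5* libraries was also left out in turn.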

Additional observations from a re-analysis of the deposited data

Results flagged for a closer look

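In 32 groups of 4 libraries, 4 had a library far from the other 3, where chance gives about 1 in 20. The 32 groups are not independent, since the median level and the summed TPM of the chromosome 2A interval share libraries and genes. In GA-treated *idd5*, the median level of the chromosome 2A interval was 0 in replicate 2 and at least 9.87% of Cadenza in the others, and the summed TPM of its genes was 38.1 in replicate 2 and at least 128 in the others. *IDD5-B1* had 30.5 TPM in replicate 3 of GA-treated *idd5* and at least 35.1 TPM in the others. TraesCS5B02G421100 had 2.83 TPM in replicate 1 of GA-treated Cadenza and at most 1.2 TPM in the others.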

How the results depend on the processing

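Of 356 values recomputed under 21 alternatives, 347 kept their side of the threshold, for named genes, or stayed within 1.5 times, for counts. The direction was kept by 251 of the 252 values of named genes. The exception was *IDD5-A1* without Cadenza replicate 2, with a change of 0. With only the 8 GA-treated libraries, DEGs outside the interval numbered 2802 (1477 higher, 1325 lower), and 46.3% of the 5839 remained. At an adjusted p-value of 0.05 there were 9997, of which 5784 were lower and 9638 had the same direction in water. Each of the 8 GA-treated Cadenza and *idd5* libraries left out in turn gave 4028 to 5382 DEGs, with 2207 to 2784 higher and 1821 to 2708 lower. The other libraries of the fit were always kept. The lowest counts were without Cadenza replicate 3. The DEGs of the interval numbered 54 to 63 under every alternative, but not always among the same genes. The 54 came with a filter at 2 TPM, which left out some of the 67 members. The 63 came without a filter, where genes of the interval beyond the 67 members could count. *RHT-B1* lost its call with median-ratio scaling and with only the 8 libraries, and 250 of the 252 values of named genes kept their side of the threshold. The table holds 0 low-confidence gene models, so that alternative changed nothing. Replicate numbers did not pair the libraries, since same-numbered Cadenza and *idd5* libraries deviated together with correlations of -0.0629, 0.0129, -0.00969 and 0.0728. A replicate block gave 6025 DEGs outside the interval and 62 inside it. Depth is unknown, and genes under 1 TPM had a median standard error of 0.228 on the log2 scale, which limits what could be called.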
